A study of Mus musculus with 8 samples.

Results

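The genes described here are 10 targets of the transcription factor p53 that act in metabolism, in DNA repair or in growth control: Dcxr, Ephx1, Tigar, Ercc5, Polk, Rrm2b, Ptp4a3, Rps27l, Gdf15 and Sulf2. They were chosen by name, and every probe of the array that the platform annotation assigns to them was taken. This gave 13 probes of 8 genes, out of 25662 probes of 16562 genes in all. For Gdf15 and Sulf2 no probe carried the name in the annotation used here. Tigar stayed at background, so 7 genes and 10 probes were tested.

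Signals were compared between 2 groups of neural stem and progenitor cells (NPCs) taken at embryonic stage E14.5 from mice of a mixed C57BL/6 X 129S1/SvlmJ background. Both groups carried the Prmt5F/F genotype, in which Prmt5 is flanked by sites for Cre recombinase. In the Prmt5-depleted group (Prmt5F/FNes, 4 arrays) Nestin-Cre was also present, with Cre driven by Nestin, a gene of neural progenitors. The control group (Prmt5F/F, 4 arrays) had no Cre in its label, so effects of Cre and of Prmt5 loss cannot be told apart. No label tells if the RNA on the arrays of a group came from different embryos or cultures. The p-values therefore reflect the spread among the arrays, which may be technical. Prmt5 encodes an enzyme that dimethylates arginines of histones, splicing proteins and other substrates.

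p53 is kept low in unstressed cells by Mdm2 and Mdm4. When it is released it binds DNA as a tetramer at response elements, each built from a pair of 10-base elements, and activates genes for cell cycle arrest and cell death. A further set of its targets serves other ends: repair of damaged DNA, supply of deoxynucleotides, handling of sugars and reactive compounds, and feedback on the response itself. In the developing brain, activated p53 is known for the loss of neural progenitors.

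Sequences around annotated starts are shown for 4 of the genes that rose, because start sites are where p53 would be looked for first. The sequences come from RefSeq (GRCm38.p6), which holds 12 windows for 8 of the 10 genes. No window was listed for Rrm2b or Ptp4a3. Each window runs 5′ to 3′ from 250 bases before an annotated start to 50 bases after it. Capitals mark an exact match to the 10-base p53 consensus element, or both elements of a pair that lie 0 to 13 bases apart with at most 1 mismatch each. The element is its own reverse complement, so a search of 1 strand covers both.

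Rps27l, chr9:66946163-66946462, plus strand: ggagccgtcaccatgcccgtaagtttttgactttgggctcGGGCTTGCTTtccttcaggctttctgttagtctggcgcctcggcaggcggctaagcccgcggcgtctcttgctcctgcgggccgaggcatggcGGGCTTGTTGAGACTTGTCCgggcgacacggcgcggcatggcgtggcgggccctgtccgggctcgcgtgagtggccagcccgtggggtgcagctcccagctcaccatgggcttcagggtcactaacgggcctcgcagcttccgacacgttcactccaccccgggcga

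Polk, chr13:96519138-96519437, minus strand: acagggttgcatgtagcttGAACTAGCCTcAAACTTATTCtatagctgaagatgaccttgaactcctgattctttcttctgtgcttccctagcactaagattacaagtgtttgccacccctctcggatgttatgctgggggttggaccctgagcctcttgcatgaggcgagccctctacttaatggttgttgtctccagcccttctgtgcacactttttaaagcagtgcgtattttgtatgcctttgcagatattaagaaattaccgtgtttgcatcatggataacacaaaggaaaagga

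Dcxr, chr11:120727235-120727534, minus strand: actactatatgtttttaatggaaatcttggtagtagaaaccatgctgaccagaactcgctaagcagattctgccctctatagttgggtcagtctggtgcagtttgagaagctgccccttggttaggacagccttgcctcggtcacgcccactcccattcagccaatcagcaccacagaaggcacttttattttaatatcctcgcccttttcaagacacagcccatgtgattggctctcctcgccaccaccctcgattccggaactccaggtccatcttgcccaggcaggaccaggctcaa

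Ercc5, chr1:44147494-44147793, plus strand: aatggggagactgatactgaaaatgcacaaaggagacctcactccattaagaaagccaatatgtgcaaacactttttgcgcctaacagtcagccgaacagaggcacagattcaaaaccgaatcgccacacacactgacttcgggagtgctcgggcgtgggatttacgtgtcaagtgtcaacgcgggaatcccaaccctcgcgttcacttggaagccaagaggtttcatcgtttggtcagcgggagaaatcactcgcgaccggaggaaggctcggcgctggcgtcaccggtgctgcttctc

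The Rps27l window shown, at the more downstream of its annotated starts, held 2 exact elements, GGGCTTGCTT at 210 bases and AGACTTGTCC at 107 bases before the annotated start. The second directly follows GGGCTTGTTG, which has 1 mismatch, so that the pair abuts. The Rps27l window at its upstream start (chr9:66945836-66946135) held no exact element and no pair. It ends before the window shown begins, so the marked elements lie downstream of the upstream start. Whether they lie in a promoter or inside the transcribed gene was not tested. RefSeq lists 2 windows for Polk, and the one shown, at the downstream start, is the one with matches. The window at the upstream start (chr13:96542530-96542829) held no element within 1 mismatch. Its bases are 68.7% G or C, against 44.3% in the window shown. Whether transcription begins at the downstream site, or whether that site is the edge of an inner exon, was not tested. The matches are therefore not placed in a known Polk promoter. In the window shown, GAACTAGCCT lay 231 bases before the start and AAACTTATTC, with 1 mismatch, 220 bases before it. The windows of Dcxr and Ercc5 held no capitals, which says only that these letters are not in the bases shown. Across the 12 windows of these genes 2 held an exact element and 2 a pair, against 8.36% and 6.72% of all 32851 windows. Of 40 windows from 29 other p53 target genes, 10 held an exact element and 4 a pair. A match is a description of the sequence and was not tested for binding. Which annotated starts are used in these cells was not tested either.

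Arrays had a mean deposited signal of 472 to 573 intensity units in Prmt5-depleted cells and 449 to 598 in control cells, and 12518 to 13602 probes were detected per array. With 4 arrays a group, their number sets the precision. Prmt5 at its brightest probe had log2 values of 7.39, 7.84, 7.32 and 8.21 on Prmt5-depleted arrays, against 10.02, 10.48, 10.54 and 10.52 on control arrays. Its 3 probes were 6.06-fold to 8.45-fold lower in Prmt5-depleted cells, and all stayed detected. Their position in or outside the deleted stretch was not determined here. Prmt5-depleted 1 and 3 and control 4 stood apart from the other 5 arrays along the second principal component, which held 10.5% of the variance. Without these 3 arrays, and likewise with the split as a covariate, the same 5 of the genes described here were called. Of 8 measured progenitor markers 4 fell and 2 rose, and Pax6 and Msi1 were detected on no array at their brightest probes. Their summed signal was 32918 to 36024 on Prmt5-depleted arrays and 33821 to 38588 on control arrays. This sum is dominated by Vim (mean log2 signal 13.95 in Prmt5-depleted and 13.41 in control cells) and Slc1a3 (13.77 and 14.07). It hardly reflects dimmer markers such as Hes5, which fell 8.79-fold. Markers of neurons were higher in 9 of 10, and their summed signal was 22658 to 25299 on Prmt5-depleted arrays, against 7788 to 8635 on control arrays. The one not called, Tubb3, was dim and detected on 2 of 4 arrays of each group, and Snap25 and Nefl were detected nowhere. Of 7 oligodendrocyte lineage markers 6 fell and Mbp rose 4.16-fold, with sums of 23287 to 27643 in Prmt5-depleted cells and 35419 to 39517 in control cells. Olig1, at a mean log2 signal of 14.61 in Prmt5-depleted and 15.08 in control cells, dominates these sums. Among the 6 that fell, Pdgfra differed by -5.34 and Gpr17 by -4.47 on the log2 scale. Both were detected on 0 of 4 Prmt5-depleted and 4 of 4 control arrays, so they could be tested only through the control arrays. Of 3 astrocyte markers 1 rose and Gfap and S100b were detected nowhere, with sums of 3143 to 3605 in Prmt5-depleted cells and 3008 to 5166 in control cells. The 4 measured mesenchymal markers all rose, with sums of 1167 to 1403 on Prmt5-depleted arrays and 405 to 544 on control arrays. One of them, Lum, was detected on 4 of 4 Prmt5-depleted and 0 of 4 control arrays, so it could be tested only through the former. Col1a2 and Col3a1 were too dim to test, and Col1a1 and Pdgfrb were detected nowhere. Red cell markers had sums of 299 to 419 in Prmt5-depleted cells and 101 to 110 in control cells. The ones tested, Hba-a1 and Hbb-y, were detected on 4 of 4 Prmt5-depleted and 0 of 4 control arrays. They could be tested only because the Prmt5-depleted arrays detected them, so the filter favoured their rise. Hbb-bh1 and Alas2 were detected nowhere. Endothelial markers had sums of 236 to 336 in Prmt5-depleted cells and 192 to 228 in control cells. The only one tested, Esam, rose (limma adjusted p = 0.00578), and Pecam1, Cdh5, Tek and Tie1 were detected nowhere. Microglial markers had sums of 254 to 353 in Prmt5-depleted cells and 226 to 241 in control cells. The only one tested did not pass, and 5 others, Ptprc among them, were detected nowhere. The part of these cell types in the results below was not tested, and in bulk RNA fewer cells of a type and less RNA per cell cannot be told apart.

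Of the 7 genes tested, 5 were higher in Prmt5-depleted cells: Dcxr, Ercc5, Polk, Ptp4a3 and Rps27l. None was lower, and Ephx1 and Rrm2b did not pass the test. The test was limma's linear model across 9001 genes, with 1 probe per gene and a Benjamini-Hochberg adjusted p under 0.05. Over all genes tested, 48.6% were called by this rule, 24.0% higher and 24.5% lower. Counts given below for lists of genes are to be read beside these shares. The median log2 difference was 0.74 over the 7 genes, against -0.04 over all genes tested. In 4 of the 5, every Prmt5-depleted array lay above every control array, an arrangement found in 22.6% of all genes tested. The reverse held for 0 of the 7 and for 22.2% of all genes tested. At probe level 7 of 10 were called higher and 0 lower, where 22.1% and 24.7% of all 13196 probes tested were.

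**Figure D1:**
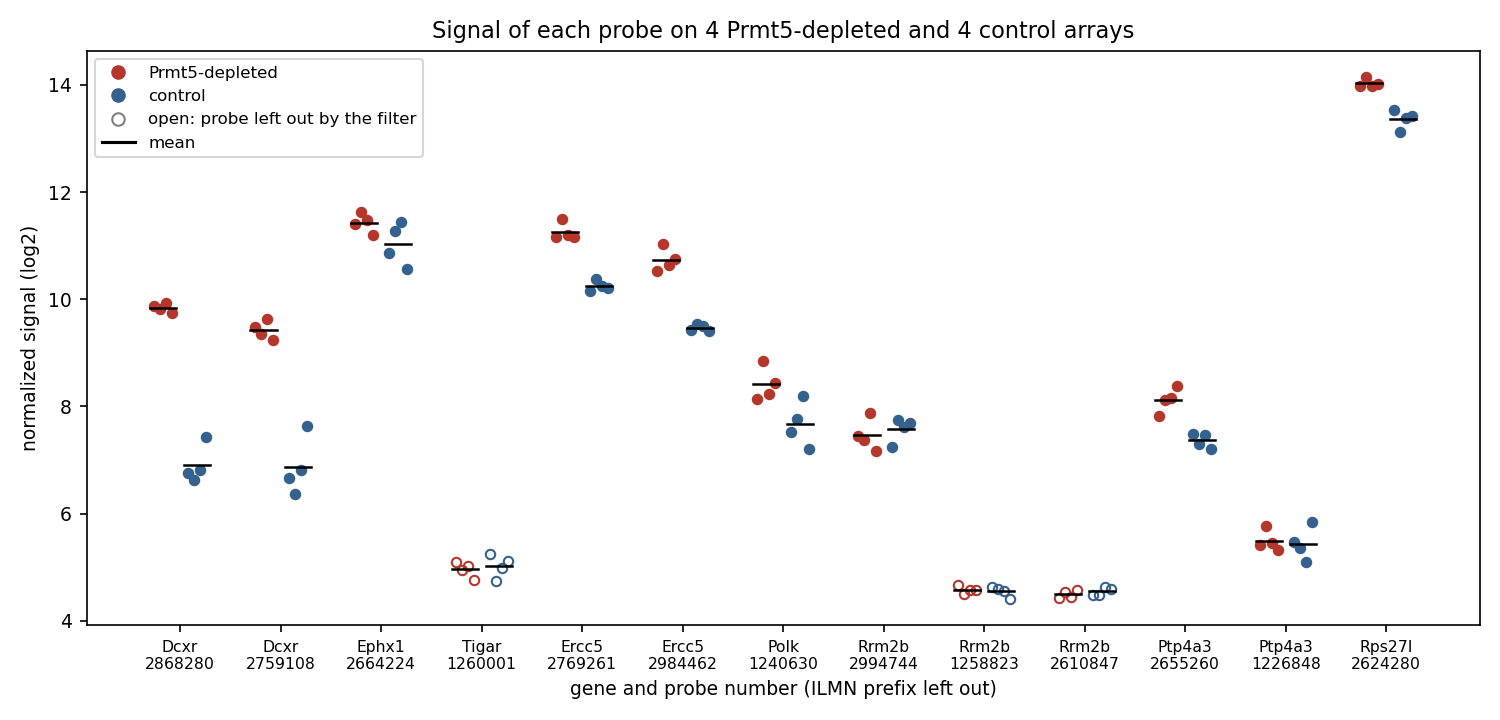
Normalized log2 signal (vertical axis) of the 13 probes of 8 genes on 4 Prmt5-depleted arrays (red, left of each pair) and 4 control arrays (blue, right). Lines are means and open circles mark probes left out because too few arrays detected them. Dcxr has the widest gap between the groups, whereas among kept probes the groups overlap for Ephx1, Polk, Rrm2b and the dim probe of Ptp4a3.

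The metabolic gene with the largest change was Dcxr, which encodes a reductase of dicarbonyl compounds and of xylulose in the glucuronate pathway. At probe ILMN_2868280 its normalized log2 signal was 9.87, 9.82, 9.93 and 9.75 on Prmt5-depleted arrays 1 to 4, against 6.76, 6.63, 6.82 and 7.43 on control arrays 1 to 4. All Prmt5-depleted arrays were high and close together, and control 4 was the highest of the controls. The means were 9.84 ± 0.07 in Prmt5-depleted cells and 6.91 ± 0.35 in control cells (SD, n = 4 each), a 7.64-fold rise (log2 difference 2.93, standard error 0.16, limma adjusted p = 1.76e-07). By size this rise stood at rank 42 of 9001 genes. The second probe, ILMN_2759108, had 9.49, 9.36, 9.64 and 9.24 in Prmt5-depleted cells and 6.66, 6.36, 6.81 and 7.63 in control cells, a 5.92-fold rise. The log2 difference was 0.37 larger at the first probe than at the second (exact permutation test over the arrays, two-sided, p = 0.0286, the smallest that 70 splits allow; adjusted over 3 pairs of probes p = 0.0429). In the authors' quantile-normalized values, which keep the background, the first probe rose 5.43-fold.

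Genes around Dcxr in uronate and xylulose metabolism did not follow it as a group. Of 7 measured, 1 was called higher and 1 lower. Akr1a1, an aldehyde reductase of the same pathway, rose 1.45-fold (limma adjusted p = 0.00596), but did not pass with median scaling (adjusted p = 0.0892). Xylb, the xylulose kinase, differed by -0.45 on the log2 scale and was detected on 1 of 4 Prmt5-depleted and 3 of 4 control arrays. Its adjusted p was 0.0444, and 0.0592 to 0.125 without any of 6 of the 8 arrays (all but Prmt5-depleted 2 and control 3). In all, Xylb missed the threshold under 12 of 18 alternatives to the processing, the authors' quantile-normalized values among them (adjusted p = 0.0937).

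Ephx1 encodes the microsomal epoxide hydrolase, which opens reactive epoxides of drugs and pollutants. Its log2 signal was 11.40, 11.63, 11.47 and 11.20 in Prmt5-depleted cells, against 10.87, 11.28, 11.44 and 10.57 in control cells. Control 2 and 3 lay within the range of the Prmt5-depleted arrays and control 1 and 4 below it. The log2 difference of 0.38 (standard error 0.18, 95% interval -0.02 to 0.79) did not pass the test (limma adjusted p = 0.108). Without control 3 it did (0.52, adjusted p = 0.0387). Among other epoxide hydrolases, Ephx4 rose 2.86-fold (adjusted p = 0.000138) and Lta4h, which makes leukotriene B4, fell 1.60-fold (adjusted p = 0.00314). Ephx2, the soluble form, was too dim to test.

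Tigar encodes a phosphatase that lowers fructose 2,6-bisphosphate and so restrains glycolysis. Its only probe, ILMN_1260001, was detected on 0 of 8 arrays, with log2 values of 5.10, 4.94, 5.02 and 4.77 in Prmt5-depleted cells and 5.24, 4.75, 4.99 and 5.11 in control cells. Detection p-values ran from 0.0514 to 0.231, and a change was not detectable at this signal. Of the enzymes that make fructose bisphosphates, 4 of 5 tested were called higher and 1 lower. Phosphofructokinase, the glycolytic enzyme that fructose 2,6-bisphosphate activates, has 3 of these genes. Pfkp, the platelet type of phosphofructokinase, rose 3.39-fold (limma adjusted p = 9.05e-06) and Pfkm, the muscle type, rose 1.41-fold (adjusted p = 0.00221). Pfkl, the liver type, fell 4.29-fold (adjusted p = 2.38e-07). Only Pfkfb2 and Pfkfb4 of the 5 encode enzymes that make and break down fructose 2,6-bisphosphate itself. Pfkfb4 rose 1.73-fold (adjusted p = 7.39e-05). Pfkfb2 rose 1.64-fold (adjusted p = 0.0224), but did not pass without Prmt5-depleted 2, Prmt5-depleted 4 or control 4 (adjusted p = 0.0679, 0.0537 and 0.0529). In the pentose phosphate pathway, to which sugar phosphates are diverted when glycolysis slows, 5 of 7 measured genes were called lower and 0 higher. Of the 5, H6pd (adjusted p = 0.0480) missed the threshold under 13 of 18 alternatives to the processing. These include median scaling (adjusted p = 0.107) and the authors' quantile-normalized values (adjusted p = 0.0968). They also include leaving out 1 of 6 arrays, any but Prmt5-depleted 4 and control 4 (adjusted p = 0.0797 to 0.140). Prps1, which makes phosphoribosyl pyrophosphate, fell 1.46-fold (adjusted p = 0.00236) and the lactonase gene Pgls fell 1.53-fold (adjusted p = 0.00256). The transketolase gene Tkt fell 1.55-fold at its brightest probe (adjusted p = 0.00389), whereas the mean of its kept probes gave a log2 difference of 0.20 (adjusted p = 0.175).

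**Figure D2:**
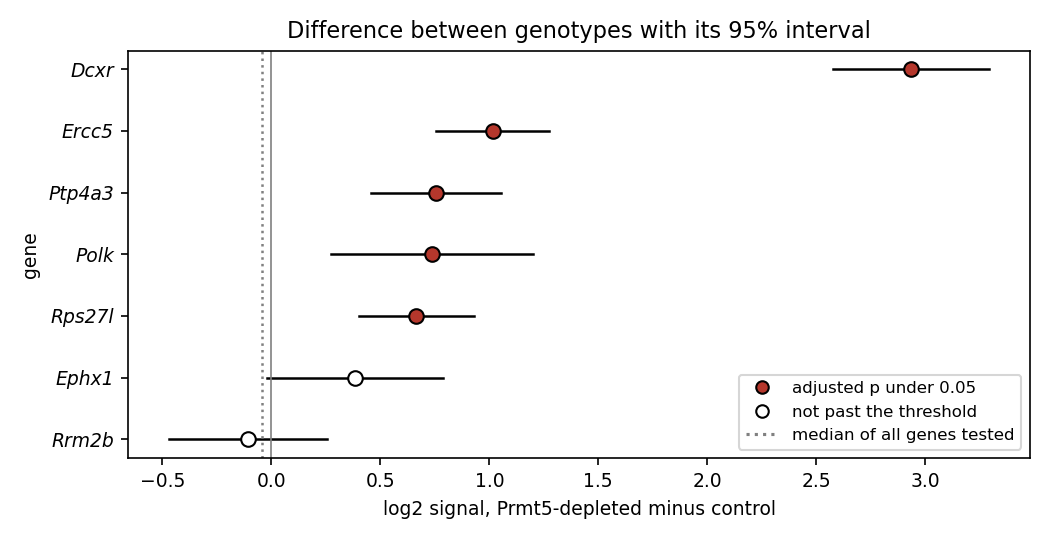
Log2 difference, Prmt5-depleted minus control (horizontal axis), of the 7 genes tested, with the 95% interval from limma's moderated variance as a bar. Filled circles passed an adjusted p of 0.05. Dcxr stands at 2.93, the next 4 between 0.67 and 1.02, and the intervals of Ephx1 and Rrm2b include 0.

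Of the repair genes, Ercc5 (XPG) cuts the damaged strand on its 3′ side during nucleotide excision repair. At ILMN_2769261 its log2 signal was 11.17, 11.50, 11.20 and 11.17 in Prmt5-depleted cells, against 10.16, 10.38, 10.24 and 10.21 in control cells. The groups did not overlap, and both had array 2 as their highest. The rise was 2.02-fold (means 11.26 ± 0.16 in Prmt5-depleted cells and 10.25 ± 0.10 in control cells, SD, n = 4 each; limma adjusted p = 3.00e-05). The second probe, ILMN_2984462, had 10.52, 11.03, 10.64 and 10.76 in Prmt5-depleted cells and 9.42, 9.53, 9.50 and 9.40 in control cells, a 2.42-fold rise. The log2 difference at the first probe less that at the second was -0.26 (exact permutation p = 0.0286, two-sided; adjusted over 3 pairs p = 0.0429).

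The other genes of nucleotide excision repair did not rise with Ercc5. Among 14 measured there was 1 rise against 3 falls, 10 missed the threshold, and the list had a median log2 difference of -0.07. Gtf2h5, the smallest subunit of the repair and transcription factor TFIIH, rose 1.93-fold (limma adjusted p = 2.03e-05), and Gtf2h4 of the same complex fell 1.67-fold (adjusted p = 0.000137). Ercc1, whose product cuts on the 5′ side as a partner of the Ercc4 product, fell 1.56-fold (adjusted p = 0.000845). Ercc4 itself differed by 0.12 on the log2 scale (adjusted p = 0.341). Ercc8 differed by -0.36 (adjusted p = 0.0268) and missed the threshold without Prmt5-depleted 2, Prmt5-depleted 4 or control 4 (adjusted p = 0.0754, 0.0571 and 0.0613). In all, Ercc8 missed it under 6 of 18 alternatives. On each array the signal of Ercc5 was set against that of both nuclease partners. The ratio to Ercc1 was higher in Prmt5-depleted than in control cells by 1.65 on the log2 scale and the ratio to Ercc4 by 0.89. For each the groups did not overlap (exact permutation p = 0.0286, two-sided, the smallest possible, and adjusted over 7 pairs of genes p = 0.0333). Neither ratio adds to the changes of the single genes. Ercc5 rose and Ercc1 fell, each without overlap of the groups. Ercc4 stayed between 7.20 and 7.40 on all arrays, a range narrower than the gap between the groups of Ercc5.

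Polk encodes DNA polymerase kappa, which copies past bulky adducts on damaged templates. Its single probe had 8.14, 8.84, 8.23 and 8.43 in Prmt5-depleted cells, against 7.52, 7.77, 8.19 and 7.21 in control cells. The groups overlapped at 1 point, since control 3 lay above Prmt5-depleted 1. The rise was 1.67-fold (log2 difference 0.74, standard error 0.21, limma adjusted p = 0.0127), with a 95% interval of 1.21-fold to 2.30-fold. It stayed called under 18 of 18 alternatives, at adjusted p-values of 0.00091 to 0.0403.

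Translesion synthesis genes split in both directions, as did all genes tested. Of 14 measured, 4 were called higher (28.6%) and 6 lower (42.9%), beside 24.0% and 24.5% of all genes tested. The ubiquitin-conjugating enzymes Ube2b and Ube2a, which with Rad18 mark the sliding clamp for bypass of a lesion, rose 1.99-fold and 1.54-fold (limma adjusted p = 2.04e-05 and 0.000647), and the repair polymerase Polb rose 1.77-fold (adjusted p = 0.00357). Mad2l2, a subunit of polymerase zeta, fell 3.03-fold (adjusted p = 3.70e-06), the deubiquitinase Usp1 fell 2.63-fold (adjusted p = 6.43e-06) and Rad18 fell 2.37-fold (adjusted p = 1.02e-05). Of the polymerases of the same family as Polk, Rev1 rose 1.51-fold (adjusted p = 0.00732), Polh fell 1.72-fold (adjusted p = 0.000304) and Poli differed by -0.13 on the log2 scale (adjusted p = 0.389). The within-array ratio of Polk to Polh was higher in Prmt5-depleted than in control cells by 1.52 on the log2 scale and that to Poli by 0.86, without overlap of the groups (exact permutation p = 0.0286 and adjusted p = 0.0333 for each, two-sided). The ratio to Polh adds nothing to the single genes. Polh was at most 6.62 in Prmt5-depleted and at least 7.06 in control cells, a gap wider than the overlap of Polk.

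Rrm2b encodes p53R2, the small subunit of ribonucleotide reductase that supplies deoxynucleotides outside S phase. At ILMN_2994744 the log2 signal was 7.45, 7.38, 7.87 and 7.17 in Prmt5-depleted cells, against 7.25, 7.74, 7.61 and 7.70 in control cells. All control arrays lay within the range of the Prmt5-depleted arrays. The log2 difference was -0.11 (standard error 0.16, limma adjusted p = 0.622), and its 95% interval ran from -0.47 to 0.25, so a rise above 1.19-fold lay outside it. The probes ILMN_2610847 and ILMN_1258823 were detected on 0 of 8 arrays. The S-phase subunit gene Rrm2 differed by -0.38 (adjusted p = 0.256), and the ratio of Rrm2b to Rrm2 by 0.27 (exact permutation p = 0.457, two-sided; adjusted p = 0.457). In the wider supply of deoxynucleotides, 8 of 14 measured genes fell and 0 rose, with a median log2 difference of -0.83. The thymidine kinase gene Tk1 fell 3.13-fold (adjusted p = 2.34e-06), the nucleotide pyrophosphatase gene Dctpp1 fell 2.60-fold (adjusted p = 3.57e-06) and Samhd1, whose product degrades deoxynucleotides, fell 1.80-fold (adjusted p = 0.000129).

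**Figure D3:**
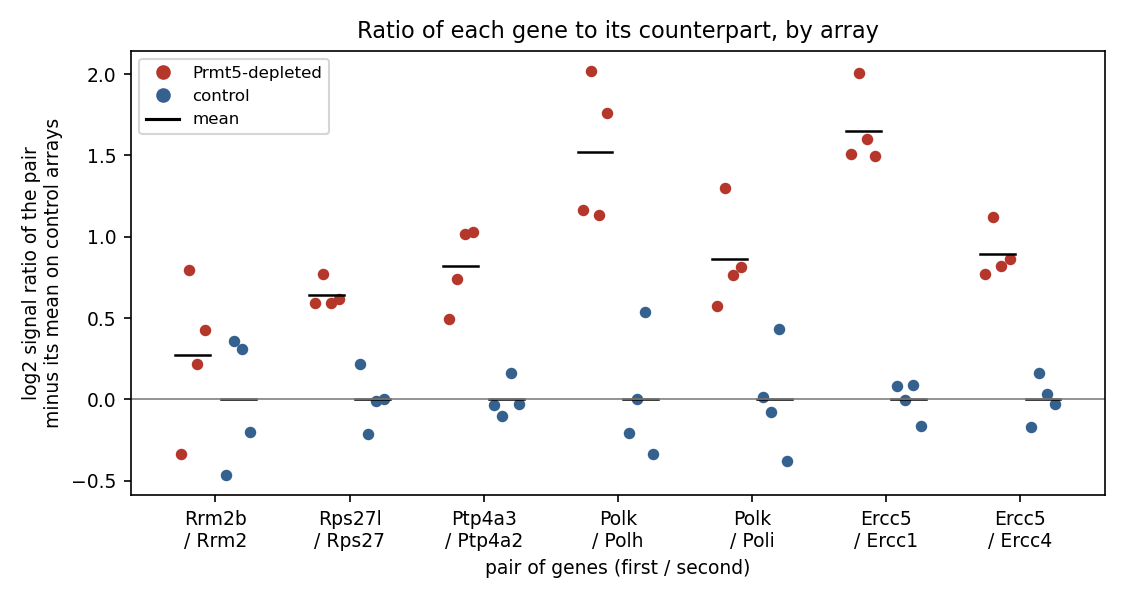
Log2 ratio of each gene to its paralogue or pathway counterpart on the same array, less the mean of that ratio on the control arrays (vertical axis), for 7 pairs. Red points are the 4 Prmt5-depleted arrays, blue points the 4 control arrays and lines the means. The groups overlap for Rrm2b to Rrm2 and lie apart for the other 6 pairs, by 0.64 for Rps27l to Rps27 and up to 1.65 for Ercc5 to Ercc1.

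Ptp4a3 (PRL-3) encodes a prenylated phosphatase of the PTP4A family that binds the magnesium transporters of the CNNM family. At ILMN_2655260 it had 7.83, 8.12, 8.16 and 8.38 in Prmt5-depleted cells, against 7.49, 7.30, 7.47 and 7.20 in control cells. The groups did not overlap, and the rise was 1.69-fold (log2 difference 0.76, standard error 0.14, limma adjusted p = 0.000774). The other probe, ILMN_1226848, was dim and was detected on 4 of 4 Prmt5-depleted and 3 of 4 control arrays. Its values were 5.41, 5.77, 5.45 and 5.32 in Prmt5-depleted cells and 5.47, 5.36, 5.10 and 5.84 in control cells, a log2 difference of 0.05 (adjusted p = 0.824 over all probes). The change at the bright probe exceeded that at the dim probe by 0.71 (exact permutation p = 0.0571, two-sided; adjusted over 3 pairs p = 0.0571). In the authors' quantile-normalized values this difference passed the test (0.57, exact permutation, adjusted p = 0.0286). With both probes averaged the gene rose 1.32-fold (adjusted p = 0.0126).

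Its paralogue Ptp4a2 differed by -0.06 on the log2 scale (limma adjusted p = 0.668). The ratio of Ptp4a3 to Ptp4a2 was higher in Prmt5-depleted than in control cells by 0.82 (exact permutation p = 0.0286, two-sided; adjusted p = 0.0333). The values of the single genes already fixed this outcome. Ptp4a2 was at most 13.19 in Prmt5-depleted and at least 13.04 in control cells, an overlap smaller than the gap between the groups of Ptp4a3. Of the 4 measured genes among the other PTP4A phosphatases and CNNM transporters, 1 rose and 0 fell. Cnnm2 rose 1.37-fold (adjusted p = 0.0176), though with Prmt5-depleted 2 left out it no longer passed (adjusted p = 0.0526).

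Rps27l encodes a ribosomal protein closely similar to Rps27, and in human cells its product has been tied to the stability of p53. Its log2 signal was 13.98, 14.15, 13.98 and 14.02 in Prmt5-depleted cells, against 13.54, 13.12, 13.39 and 13.42 in control cells. The groups did not overlap. The rise was 1.59-fold (means 14.03 ± 0.08 in Prmt5-depleted cells and 13.37 ± 0.17 in control cells, SD, n = 4 each; limma adjusted p = 0.000731), and 1.38-fold with median scaling in place of quantile normalization (adjusted p = 0.0178). In the deposited signal before normalization the arrays ran from 13462 to 17773 in Prmt5-depleted cells and from 9114 to 13099 in control cells. Rps27 differed by 0.02 on the log2 scale. The ratio of Rps27l to Rps27 was higher in Prmt5-depleted than in control cells by 0.64 (exact permutation p = 0.0286, two-sided; adjusted p = 0.0333). As the genes are closely similar, cross-hybridization between them cannot be judged without the probe sequences.

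Gdf15, a secreted stress cytokine, and Sulf2, which removes sulfate groups from heparan sulfate outside the cell, had no probe by these names. Gdf15 is also a target of the integrated stress response, in which 2 of 14 measured genes were called lower and 0 higher. In each of these 14 genes control 2 and 3 both lay above control 1 and 4. The same order of the controls held for Ercc5, Polk and Ephx1, and not for Dcxr, Rrm2b, Ptp4a3 and Rps27l. Its source was not tested. Ddit3, a transcription factor of the response, had 9.18, 9.20, 9.52 and 9.26 in Prmt5-depleted cells and 7.42, 9.49, 10.06 and 7.96 in control cells. Psat1, of serine synthesis, fell 1.42-fold (limma adjusted p = 0.0136), and the pseudokinase gene Trib3 differed by -1.22 on the log2 scale (adjusted p = 0.0248), which failed the test without Prmt5-depleted 4, control 2 or control 3 (adjusted p = 0.0532, 0.0745 and 0.0599). Among enzymes of heparan sulfate, 4 of 11 measured rose and 1 fell. Hs3st1, a sulfotransferase, rose 4.99-fold (adjusted p = 4.81e-07) and Sulf1, the paralogue of Sulf2, rose 4.40-fold (adjusted p = 0.000166), with 1 of 4 control arrays detecting it. The chain-building enzyme gene Ext2 fell 1.62-fold (adjusted p = 0.000764). The other rises, Hs6st1 and Hs2st1, were below 1.3-fold, and the count of rises was 2 when any 1 of 7 arrays (all but Prmt5-depleted 4) was left out. Hs6st1 and Hs2st1 each missed the threshold under 11 of 18 alternatives.

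**Figure D4:**
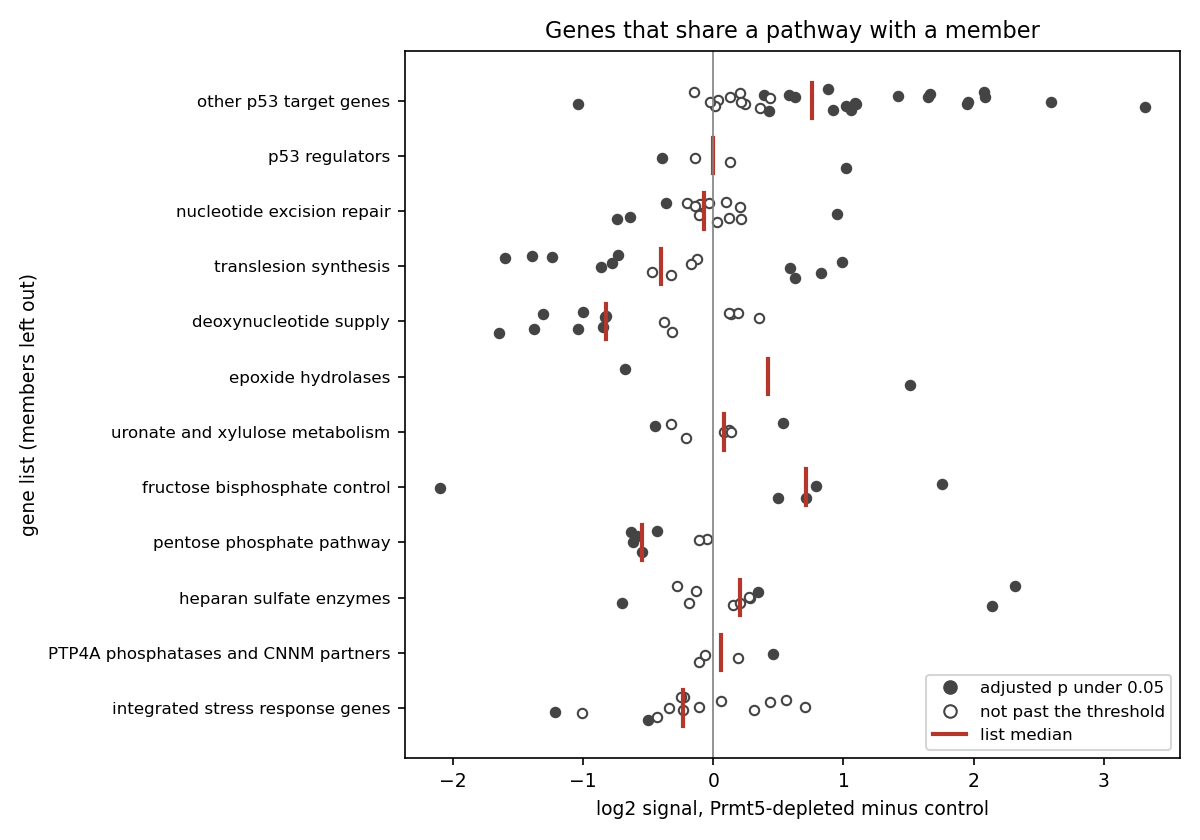
Log2 difference, Prmt5-depleted minus control (horizontal axis), of the measured genes of 12 lists that share a pathway with the genes described here, which are themselves left out. Filled circles passed an adjusted p of 0.05 and red bars are list medians. The median is 0.75 for other p53 targets and -0.83 for deoxynucleotide supply.

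Among other p53 target genes, 19 of 30 measured were called higher and 1 lower, beside the 24.0% and 24.5% of all genes tested. Their median log2 difference was 0.75, close to the 0.74 of the 7 genes described here. Pmaip1, which encodes the death protein Noxa, differed by 2.60 on the log2 scale, the adenylate kinase gene Ak1 by 2.08 and the death receptor gene Fas by 3.31, with 1 of 4 control arrays detecting Fas (limma adjusted p = 1.02e-07, 2.25e-07 and 2.58e-07). Ddit4 differed by -1.04 (adjusted p = 0.0200), which missed the threshold when control 2 or control 3 was left out (adjusted p = 0.0599 and 0.0524). The p53 targets that recognise damage in nucleotide excision repair did not pass the test, with log2 differences of 0.21 for Xpc and 0.20 for Ddb2 (adjusted p = 0.236 and 0.565). Of the regulators of p53, Mdm2 differed by 1.02 at its brightest probe (adjusted p = 0.000281) and by 1.12 and 0.15 at the others, the last dim and not past the test (adjusted p = 0.403 over all probes). The 3 probes of Mdm4 were detected on at most 1 of 4 arrays of a group. Cdkn2a differed by -0.40 (adjusted p = 0.0416). It missed the threshold when 1 of 6 arrays was left out, any but Prmt5-depleted 4 and control 1 (adjusted p = 0.0589 to 0.118). In all, Cdkn2a missed it under 10 of 18 alternatives. No probe was named Trp53, the gene of p53 itself.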

How the data were processed

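RNA of 8 samples was hybridized to Illumina MouseRef-8 V2 arrays. Per the file headers, the authors' main table gives non-normalized intensity and a detection p-value for each probe on each array; every column matched a sample by name, and 0 columns were left over. The sources used here do not state the software, the background step or the build. A further table of deposited intensity values, on a linear scale, was equal to the main table after quantile normalization (largest difference 3.64e-12), so it is uncentred and keeps the background. Their column medians were 95.7 to 95.8.

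Signals were background-corrected by normexp from the detection p-values, given an offset of 16 and brought to common quantiles as log2 values (neqc, limma 3.58.1, R 4.3.3, statmod 1.5.0), which pulls fold changes of dim probes towards 0. Probes with a detection p-value below 0.05 on 4 or more arrays were tested, 13196 in all. The annotation gave 1 gene for 23943 probes, several for 0 and none for 1719. A gene was represented by its brightest kept probe (9001 genes).

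Genotypes were compared without covariates by lmFit and eBayes, two-sided, with Benjamini-Hochberg adjustment over all genes or all probes. Within-array ratios of a pair were compared by an exact permutation test over the 70 splits of the arrays. Of 12 pairs named, 7 could be measured. The members, the lists and the rule for named genes (all 10 genes at all probes, their counterparts, Prmt5, Mdm2, Mdm4 and Trp53, and up to 3 called genes of a list in each direction; Ercc8, Xpc, Ddb2, Ephx2, Rev1, H6pd, Ddit3, Pfkfb2, Hs6st1, Hs2st1 and single markers are given beside them) were chosen with earlier results of these data known. Alternatives were 18: other background, scaling, offset, filter and probe rules, the matrix values, a replicate block, the arrays that stand apart as a covariate or left out, and each array left out.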

Additional observations from a re-analysis of the deposited data

Results flagged for a closer look

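Ercc5 at ILMN_2769261 had 1 array apart from its group: Prmt5-depleted 2, at 11.50 on the log2 scale, lay far above the other 3 Prmt5-depleted arrays (11.17, 11.20 and 11.17), which nearly coincide. This was the only case among 20 sets of 4 arrays examined, and chance gives about 1 in 20. Without Prmt5-depleted 2 the log2 difference of Ercc5 was 0.94 in place of 1.02 and stayed called (limma adjusted p = 0.000112).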

How the results depend on the processing

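The 5 genes called higher kept direction and call under all 18 alternatives, and Rrm2b stayed uncalled under each. Log2 differences ran from 2.44 to 3.11 for Dcxr, 0.94 to 1.15 for Ercc5, 0.58 to 0.91 for Polk, 0.40 to 0.85 for Ptp4a3 and 0.46 to 0.74 for Rps27l. Ephx1 ran from 0.22 to 0.52 and was called only without control 3. The count of all genes called was 4371, and 3884 to 4335 with 1 array left out. With a replicate block it was 3923, and the count of these genes called stayed at 5. Equal replicate numbers did not deviate together (correlations of deviations -0.13, 0.25, -0.16 and -0.38 for numbers 1 to 4), so the number was not taken as a pairing. Among other p53 targets the count of genes called lower, 1, was 0 without the filter on dim probes, and 0 to 1 with 1 array left out; the gene is Ddit4 (adjusted p = 0.0647 without the filter, where 16562 genes are tested). Over the alternatives the count of rises was 2 to 4 for heparan sulfate enzymes (4), 0 to 1 for PTP4A and CNNM genes (1) and 0 to 1 for uronate metabolism (1). The count of falls was 1 to 5 for the integrated stress response (2), 0 to 2 for uronate metabolism (1), 4 to 5 for the pentose phosphate pathway (5) and 0 to 1 for p53 regulators (1). Rises also ran from 18 to 20 for other p53 targets (19), 3 to 4 for fructose bisphosphate control (4) and 0 to 1 for deoxynucleotide supply (0). Falls also ran from 5 to 7 for translesion synthesis (6), 2 to 3 for nucleotide excision repair (3) and 8 to 9 for deoxynucleotide supply (8). They were 1 to 2 for heparan sulfate enzymes (1) and 1 to 2 for fructose bisphosphate control (1). For these shifts the cause was not tested. The exact tests of gene and probe ratios cannot reach 0.05 with 1 array left out (smallest p = 0.0571), so only their differences were recomputed there. Probes near background, such as that of Tigar, limit what can be seen.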
